A study of Mus musculus with 7 samples.

Results

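The genes described here bring cystine into the cell, build and recycle glutathione, and carry or use selenium. They were taken from a list of 9 symbols, of which 8 were measured among the 9999 named genes: Slc7a11, Gclc, Gclm, Gsr, Gpx1, Gpx4, Txnrd1 and Selenop. Nqo1 was not analysed here. Each gene was represented by its brightest probe set on average across the 7 arrays, and every value is a log2 signal unless a fold is named. The cells were RAW264.7, a mouse macrophage-like line derived from a leukaemia, untreated at time T0 in medium with serum and antibiotics in both groups. The groups were wild type (labelled RAW WT, 3 arrays) and Gfi1 knockout (labelled RAW GfI1-1, 4 arrays). Gfi1 is a zinc finger repressor of blood cells. How Gfi1 was edited, where in the gene, and in how many clones is not stated in the sources used here. Replicates are called biological, but no separate cultures are named, so a p-value here reflects only the scatter of these arrays, which may be technical.

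Slc7a11 is the light chain of system xc-, which imports cystine, the oxidised form of cysteine, in exchange for glutamate, and macrophages are known to raise it on activation. Cysteine limits the making of glutathione, which begins with glutamate-cysteine ligase (catalytic subunit Gclc, modifier subunit Gclm), and Gsr reduces oxidised glutathione with NADPH. The peroxidases Gpx1 and Gpx4 spend glutathione to remove hydrogen peroxide and lipid hydroperoxides. Both, like the thioredoxin reductase Txnrd1 and the secreted selenium carrier Selenop, contain selenocysteine, which is inserted at a UGA codon. Transcription of several of these genes is known to respond to NRF2 (gene Nfe2l2), through antioxidant response elements, and to ATF4, through amino acid response elements.

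The promoter of Slc7a11, the member with the largest rise, is shown because it holds the letters of the amino acid response element core more than once. RefSeq promoter windows (GRCm38.p6) run from 250 bases before to 50 bases after a start site, and 6 of the 8 measured members had at least 1 window. The Slc7a11 window lies at chr3:50443564-50443863 on the minus strand and is printed 5′ to 3′, with capitals marking each match to TGATGCAA on either strand.
Slc7a11: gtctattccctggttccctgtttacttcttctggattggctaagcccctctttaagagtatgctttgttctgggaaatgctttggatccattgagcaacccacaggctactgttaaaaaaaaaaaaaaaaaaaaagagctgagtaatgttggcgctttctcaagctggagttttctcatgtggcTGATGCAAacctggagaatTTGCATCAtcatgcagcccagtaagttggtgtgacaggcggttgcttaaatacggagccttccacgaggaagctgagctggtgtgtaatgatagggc
The matches begin at positions -66 and -47 relative to the start site and lie on opposite strands. TGATGCAA was found in 294 of all 32851 windows (0.895%), and 2 windows held more than 1 match: that of Slc7a11 and 1 of Chchd10, which is no member.

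Single matches to the same letters lay in the windows of Slc1a4, Chac1, Atf3 and Nupr1, the genes among the lists of cystine supply, glutathione and ATF4 targets that held one. They are shown beside those of Slc7a11 so that the flanks can be compared. Each stretch is read 5′ to 3′ along the strand that carries TGATGCAA, which is in capitals, on GRCm38.p6.
Slc7a11 upstream match, chr3:50443660-50443691, minus strand: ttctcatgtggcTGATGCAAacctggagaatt
Slc7a11 downstream match, chr3:50443641-50443672, plus strand: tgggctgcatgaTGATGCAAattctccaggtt
Slc1a4, chr11:20332698-20332729, plus strand: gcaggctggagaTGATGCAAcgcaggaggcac
Chac1, chr2:119351037-119351068, minus strand: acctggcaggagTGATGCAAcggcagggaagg
Atf3, chr1:191183424-191183455, plus strand: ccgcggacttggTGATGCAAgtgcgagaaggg
Nupr1, chr7:126625561-126625592, plus strand: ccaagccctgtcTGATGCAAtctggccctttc
All of these genes were higher in the arrays labelled knockout, with differences of 3.32 for Slc7a11 (SE 0.37), 0.87 for Slc1a4 (SE 0.13), 0.46 for Chac1 (SE 0.11), 1.41 for Atf3 (SE 0.44) and 0.84 for Nupr1 (SE 0.09). Their limma adjusted p-values ran from 0.000508 for Nupr1 to 0.0379 for Atf3. With each pair of knockout arrays as a random block, Chac1 (0.150) and Atf3 (0.108) did not pass. Chac1 and Nupr1 are named for this match, which was looked for after the values were known. Of all genes 21.5% were higher by limma, and the lists were chosen with earlier results of these data known. Whether other genes that hold these letters rose was not examined, so no link between the letters and a rise was tested.

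The core of the antioxidant response element, TGACNNNGC on either strand, was found in 12.4% of all windows, and in windows of Gclm and Txnrd1 among the members. Each held 1 match, shown in capitals along its own strand on GRCm38.p6.
Gclm, chr3:122245411-122245443, minus strand: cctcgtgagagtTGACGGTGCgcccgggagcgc
Txnrd1, chr10:82859102-82859134, minus strand: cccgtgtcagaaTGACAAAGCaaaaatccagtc
These matches begin at position -134 for Gclm and, for 1 of the 3 Txnrd1 windows, at position -92. The windows of Slc7a11, Gpx1 (1 window), Gpx4 (4 windows) and Selenop (3 windows) did not hold these letters. Letters of a GFI1 core, AATCACNGC on either strand, were in none of the 13 member windows and in 0.919% of all windows. No window of Gclc or Gsr was used here. Counted by gene, 14% of all genes with a window held the antioxidant core. In the list of ATF4 and its targets, 5 of 15 non-members with a window held it, and most other lists had 1 or 2 such genes. In the list of NRF2, its regulators and targets, 9 of 23 genes with a window held the antioxidant core, named after their values were seen. Maff (1.90), Mafg (0.78) and Me1 (1.34) rose, and Nfe2l2 (-0.63) and Pgd (-0.21) fell. Mafk, Srxn1, Abcc4 and Ugdh did not pass the limma threshold. With each pair of knockout arrays as a random block, only Me1 and Nfe2l2 of these passed. A match describes letters and is not a measured binding site.

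The arrays labelled knockout formed pairs, which bears on every result. Over all genes, the SD of the log2 difference was 0.137 between knockout replicates 1 and 2, 0.122 between replicates 3 and 4, and 0.498 to 0.508 between the pairs, against 0.111 to 0.165 between wild-type arrays. No label separates the pairs, so the 4 arrays were analysed as 1 group, and each member is also given without either pair. In every wild-type array the Gfi1 probe set lay under 3.51, which bounds the dimmest 5% of genes in that group. Its wild-type signal may be mostly background, so the size of any difference from knockout is uncertain. This probe set was higher in the arrays labelled knockout, at 3.97 to 5.02 against 2.66 to 2.98 in wild type. Where it lies relative to the edit is unknown, so it cannot serve as a check, and all directions rest on the labels. Of 11 macrophage markers 10 were measured, and 7 of these fell while 0 rose by limma, where 21.6% of all genes fell. With each knockout pair as a random block, 3 of the 10 fell (Adgre1, Csf1r and Cd68), where 4.56% of all genes fell. The summed linear intensity of the 10 markers was 27919 to 28477 in wild type and 20888 to 21828 in knockout. The part of this fall in the results was not tested. A linear sum is weighted to the brightest markers, and the brightest stood at the 99.99th percentile by signal in wild type. For other cell types, 2 of 6 erythroid, 1 of 6 hepatocyte and none of the neutrophil, T cell, B cell and fibroblast markers were among the genes analysed.

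Slc7a11, Gclm and Txnrd1 were higher in the arrays labelled knockout, Gpx1, Gpx4 and Selenop were lower, and Gclc and Gsr did not pass the limma threshold. That is 3 of 8 members (37.5%) higher, where 21.5% of all 9999 genes were higher, and 3 of 8 (37.5%) lower, where 21.6% were lower. The groups did not overlap for 6 of 8 members (75%), against 54.5% of all genes. Slc7a11 and Selenop, 25% of members, changed by at least 2-fold, against 7.56% of all genes. With only 8 members these shares differ from the background by few genes, and the members were chosen with earlier results of these data known. In bulk RNA, fewer cells with a transcript and less of it per cell cannot be told apart.

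**Figure D1:**
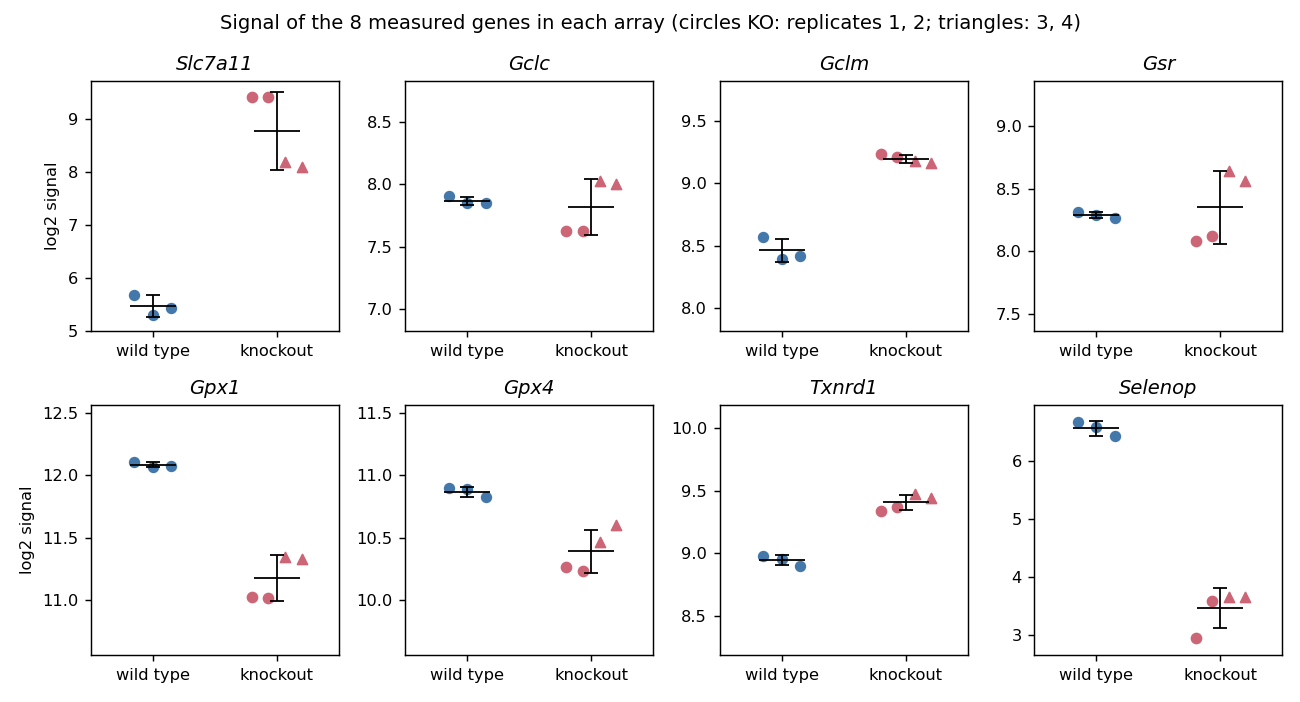
Log2 signal (vertical axis of each panel) of the 8 measured genes in 3 wild-type arrays (blue) and 4 knockout arrays (red; circles, replicates 1 and 2; triangles, replicates 3 and 4), with group mean and SD in black. The groups do not overlap for Slc7a11, Gclm, Gpx1, Gpx4, Txnrd1 and Selenop, and the knockout arrays lie on both sides of wild type for Gclc and Gsr.

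Cystine import came first in size. Slc7a11 had a log2 signal of 5.68, 5.29 and 5.43 in wild-type replicates 1 to 3, and of 9.42, 9.41, 8.19 and 8.10 in knockout replicates 1 to 4. Every knockout array was above every wild-type array, and knockout replicates 1 and 2 lay above replicates 3 and 4. Wild type averaged 5.46 ± 0.20 (SD, n = 3) and knockout 8.78 ± 0.73 (SD, n = 4), which is a difference of 3.32 (SE 0.37, 95% interval 2.44 to 4.20, limma adjusted p = 0.000605) or 9.96-fold. In the wild-type arrays the gene stood at the 19.7th percentile of all genes by signal, and in the knockout arrays at the 79.7th. Only 17 of the 9999 genes rose by more, as its rank of 18 shows. Without knockout replicates 1 and 2 the difference was 2.68, and without replicates 3 and 4 it was 3.95.

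The next step is the ligase. Gclm, the modifier that raises the ligase's activity, had signals of 8.57, 8.40 and 8.42 in wild type and of 9.23, 9.21, 9.17 and 9.16 in knockout. The knockout arrays were all higher and lay within 0.0744 of each other. The difference was 0.73 (SE 0.07, 95% interval 0.58 to 0.89, adjusted p = 0.000243) or 1.66-fold, and it was 0.71 or 0.76 with either pair left out.

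Gclc, the catalytic subunit, had signals of 7.90, 7.85 and 7.85 in wild type and of 7.63, 7.63, 8.03 and 8.004 in knockout. Knockout replicates 1 and 2 were below all wild-type arrays, and replicates 3 and 4 were above them. The mean difference was -0.05 (SE 0.12, 95% interval -0.34 to 0.24, adjusted p = 0.776). Gsr, which reduces glutathione disulfide, showed the same arrangement, with 8.32, 8.29 and 8.27 in wild type and 8.08, 8.12, 8.64 and 8.57 in knockout. Its mean difference was 0.06 (SE 0.15, 95% interval -0.30 to 0.42, adjusted p = 0.771). The intervals allow a change of either sign, and the means stand between pairs on opposite sides of wild type. Without replicates 1 and 2 both genes passed upwards (Gclc 0.15, adjusted p = 0.0444, and Gsr 0.31, adjusted p = 0.00282). Without replicates 3 and 4 both passed downwards (Gclc -0.24, adjusted p = 0.00545, and Gsr -0.19, adjusted p = 0.0148). Each of these fits keeps a single knockout pair, so its p-values reflect only scatter within that pair and wild type. Many genes passed in them: 5697 of all genes without replicates 1 and 2, and 6814 without replicates 3 and 4.

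Both glutathione peroxidases fell. Gpx1, the abundant cytosolic peroxidase, had signals of 12.11, 12.07 and 12.07 in wild type and of 11.02, 11.02, 11.35 and 11.33 in knockout. No knockout array reached the wild-type range, and replicates 1 and 2 were the lowest. The difference was -0.90 (SE 0.10, 95% interval -1.15 to -0.66, adjusted p = 0.000637), so the wild-type level was 1.87-fold the knockout level. It was -0.75 without knockout replicates 1 and 2 and -1.06 without replicates 3 and 4. The gene stood at the 99.0th percentile by signal in wild type and at the 97.4th in knockout.

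Gpx4, the peroxidase that acts on lipid hydroperoxides in membranes, had signals of 10.89, 10.89 and 10.82 in wild type and of 10.27, 10.23, 10.46 and 10.60 in knockout. The groups again did not overlap, and replicate 4 was closest to wild type. The difference was -0.48 (SE 0.10, 95% interval -0.71 to -0.24, adjusted p = 0.00827), a wild-type level 1.39-fold that of knockout. It was -0.34 without knockout replicates 1 and 2 and -0.62 without replicates 3 and 4.

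Txnrd1, which reduces thioredoxin, was the selenoprotein gene among the members that rose. Its signals were 8.98, 8.96 and 8.90 in wild type and 9.34, 9.37, 9.48 and 9.45 in knockout, with no overlap and with replicates 3 and 4 slightly above replicates 1 and 2. The difference was 0.46 (SE 0.06, 95% interval 0.32 to 0.61, adjusted p = 0.00123) or 1.38-fold. Leaving out knockout replicates 1 and 2 gave 0.51, and leaving out replicates 3 and 4 gave 0.41.

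Selenop, which carries selenium between cells, had signals of 6.68, 6.60 and 6.43 in wild type and of 2.95, 3.59, 3.66 and 3.65 in knockout. All knockout arrays were far below wild type, and replicate 1 was the lowest. The difference was -3.11 (SE 0.18, 95% interval -3.54 to -2.68, adjusted p = 4.51e-05), or a wild-type level 8.63-fold that of knockout, the 10th largest fall of the 9999 genes. The knockout mean of 3.46 lay under 3.49, which bounds the dimmest 5% of genes. Signal there may be mostly background, and the size of the fall is therefore uncertain. The difference was -2.92 without knockout replicates 1 and 2 and -3.30 without replicates 3 and 4.

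These p-values treat the 4 knockout arrays as independent. When a limma fit let arrays of a pair be correlated, with pairs as random blocks and wild type as a block of its own, 4 of 8 members (50%) passed, against 9.04% of all genes: Slc7a11 (adjusted p = 0.00543), Selenop (0.00602), Gpx1 (0.0136) and Gclm (0.0388). Txnrd1 (adjusted p = 0.0890) and Gpx4 (adjusted p = 0.149) did not. This fit has very few blocks and uses a single correlation (0.794) for all genes, so its p-values may still be too small. The members were chosen with earlier results of these data known, so their share against all genes is only a description.

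**Figure D2:**
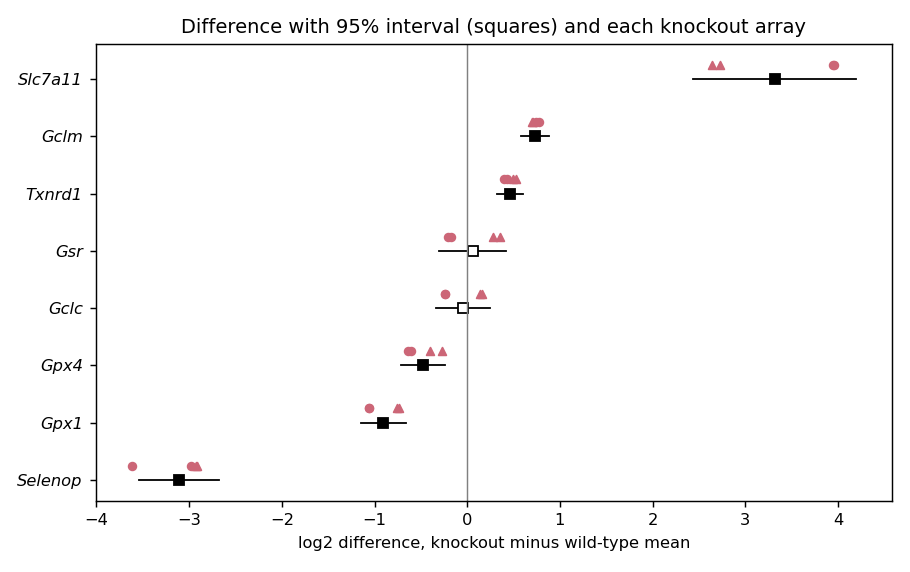
Log2 difference from wild type (horizontal axis) for the 8 measured genes; squares with bars are the mean difference and its 95% interval (filled where limma adjusted p was under 0.05), and red points are single knockout arrays (circles, replicates 1 and 2; triangles, replicates 3 and 4). Slc7a11 at 3.32 and Selenop at -3.11 stand apart from the other 6 genes, which lie between -0.90 and 0.73.

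Other probe sets gave a check on 5 members, while Slc7a11, Gpx1 and Selenop had 1 probe set each. The other Gpx4 probe set averaged 10.78 ± 0.05 (SD, n = 3) in wild type against 10.41 ± 0.12 (SD, n = 4), a difference of -0.38 beside -0.48. The other Txnrd1 probe sets differed by 0.33 and 0.46, with all knockout arrays above wild type, but with replicates 1 and 2 above replicates 3 and 4, the opposite order to the brightest set.

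The other Gclm probe set did not follow the brightest. It was dim, with 4.50, 4.37 and 4.19 in wild type and 3.52, 3.00, 4.98 and 4.73 in knockout, so that the pairs lay on opposite sides of wild type. Averaging both sets took the Gclm difference to 0.22 (adjusted p = 0.488), so its call rests on the brighter set. For Gclc the other set differed by 0.24 and for Gsr by 0.26, where the brightest sets differed by -0.05 and 0.06. Knockout replicates 3 and 4 were above all wild-type arrays in each of these sets, while the place of replicates 1 and 2 changed from set to set.

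**Figure D3:**
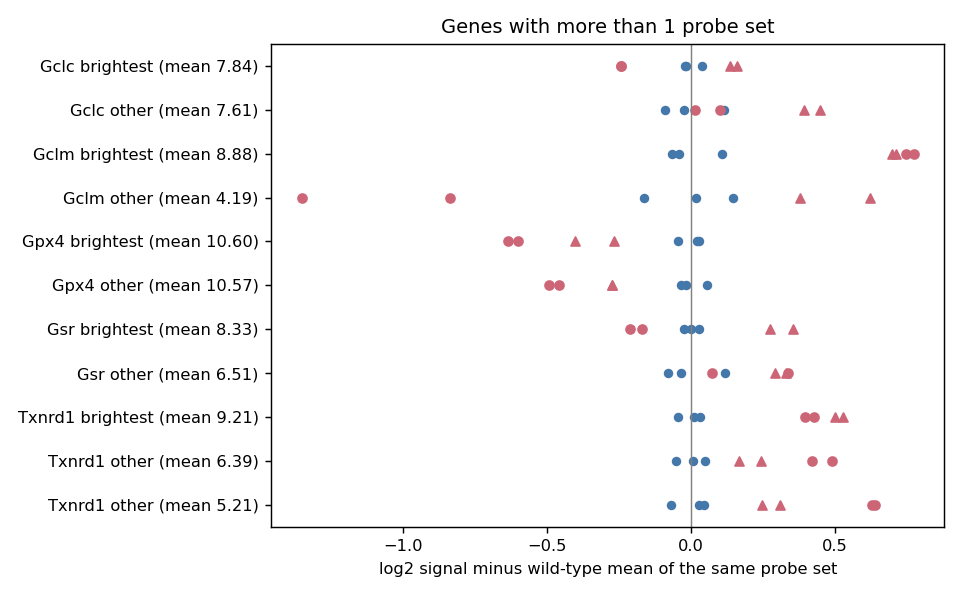
Log2 signal minus the wild-type mean of the same probe set (horizontal axis) for the 5 genes with more than 1 probe set; blue, wild type; red circles, knockout replicates 1 and 2; red triangles, replicates 3 and 4; the mean signal is in brackets. In the dim Gclm set, at a mean of 4.19, the knockout arrays spread from -1.35 to 0.62.

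Around Slc7a11, other genes of cystine and thiol amino acid supply were measured. Of 8 besides Slc7a11, 5 rose and 1 fell (Mpst, named after its value was seen, -0.25, adjusted p = 0.0456), with a median difference of 0.57, where the median of all genes was -0.0057. By limma 21.5% of all genes rose and 21.6% fell, and with the pairs as random blocks 4.48% rose and 4.56% fell. These shares are the background for each list below, and the lists too were chosen with earlier results of these data known. Cth, which makes cysteine from cystathionine, had signals of 6.96, 6.95 and 6.91 in wild type and of 9.49, 9.43, 9.06 and 9.08 in knockout, a difference of 2.32 (SE 0.12, adjusted p = 2.94e-05). All 4 knockout arrays were more than 2 log2 units above wild type. Slc3a2, the heavy chain that pairs with Slc7a11 at the membrane, had 9.38, 9.47 and 9.35 in wild type and 10.41, 10.42, 10.14 and 10.09 in knockout, a difference of 0.86 (SE 0.10, adjusted p = 0.000724). Slc7a5, the other light chain on this list that uses Slc3a2, rose by 0.77 (SE 0.06), and Slc1a4, a neutral amino acid transporter, by 0.87. Slc38a2, a glutamine carrier and the gene of highest mean on the list, differed by 0.21 (SE 0.11, adjusted p = 0.157), but passed with the mean of its probe sets (0.37, adjusted p = 0.0016). The list had 4 genes higher and 0 lower by limma with the pairs as random blocks, and Mpst did not pass (adjusted p = 0.565).

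Among 11 other glutathione synthesis, breakdown and reduction genes, 6 rose and 1 fell (Ggct, named after its value was seen, -0.21, adjusted p = 0.0233), with a median of 0.46. The glutaredoxin gene Glrx, whose protein takes glutathione off proteins, had 7.42, 7.39 and 7.18 in wild type and 9.03, 9.09, 8.20 and 8.20 in knockout, a difference of 1.30 (SE 0.26, adjusted p = 0.00645). Knockout replicates 1 and 2 were above replicates 3 and 4, and no array overlapped. Hagh, the glyoxalase that releases glutathione from lactoylglutathione, rose by 0.75 (SE 0.13), and Chac2, which breaks glutathione down, by 0.68 (SE 0.07). Gss, the enzyme that completes glutathione, had 6.88, 6.69 and 6.53 in wild type and 7.46, 7.52, 6.99 and 7.03 in knockout, a difference of 0.55 (SE 0.16, adjusted p = 0.0308). Replicates 3 and 4 were only slightly above the highest wild-type array, and the call was lost without wild-type replicate 2 or 3 (adjusted p = 0.0898 and 0.113) and without knockout replicate 1 or 2 (0.0670 and 0.0612). Slc25a39, the mitochondrial glutathione carrier and the brightest of the list, differed by -0.03 (SE 0.06, adjusted p = 0.657). With the pairs as random blocks 1 of these 11 genes passed, Glrx (adjusted p = 0.0457).

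The glutathione transferases, which join glutathione to other molecules, went both ways: 5 of 13 rose and 4 fell, with a median of 0.08. Gstt1 had the largest change, from 4.38, 4.21 and 4.45 in wild type to 8.03, 8.22, 7.38 and 7.39 in knockout, a difference of 3.41 (SE 0.23, adjusted p = 7.1e-05). In wild type the gene was dim, at the 9.5th percentile by signal, so the size of the rise is uncertain. As in Slc7a11, knockout replicates 1 and 2 were above replicates 3 and 4, and no array overlapped. Mgst3, a membrane-bound family member, fell by 1.60 (SE 0.15), while Gstp1 rose by 1.21 (SE 0.07) and Gstt3 by 0.69 (SE 0.14). Gsto1, the brightest of the list, fell by 0.29 (SE 0.08, adjusted p = 0.0257). Family members are alike in sequence, so a probe set may hybridise with more than 1 of them, and the values of Gstp1, Gstt1 and Gstt3 are uncertain in this respect. Gstt3 (adjusted p = 0.106) and Gsto1 (0.289) did not pass with the pairs as random blocks. Gsto1 also did not pass without any 1 wild-type array or knockout replicate 1 or 2 (adjusted p from 0.0524 to 0.0793), or with the mean of its probe sets (0.157).

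Of the 19 selenoprotein genes measured, members included, 3 rose and 6 fell, and 10 did not pass. The 15 that are not members had a median of -0.04, with 2 higher and 3 lower. Selenom, an oxidoreductase of the endoplasmic reticulum, had 8.33, 8.24 and 8.18 in wild type and 7.498, 7.44, 7.19 and 7.20 in knockout, a difference of -0.92 (SE 0.10, adjusted p = 0.000526). Msrb1, which repairs oxidised methionine, fell from 8.58, 8.78 and 8.80 to 7.95, 7.998, 7.77 and 7.65, a difference of -0.88 (SE 0.11, adjusted p = 0.000782). In both genes replicates 3 and 4 were the lowest, whereas in Gpx1 and Gpx4 replicates 1 and 2 were. Selenoh, a nuclear selenoprotein, fell by 0.68 (SE 0.12). Selenoo rose by 0.46 (SE 0.11) and Txnrd3, another thioredoxin reductase and named after its value was seen, by 0.36 (SE 0.11, adjusted p = 0.0346). Txnrd3 was dim, at the 11.4th percentile by signal in wild type. The call of Selenoo was lost without wild-type replicate 2 (adjusted p = 0.0627) or 3 (0.0530). Selenow, the brightest of the list, differed by 0.28 (SE 0.12, adjusted p = 0.0998). Besides members, the genes that passed with the pairs as random blocks were Selenom (adjusted p = 0.0196) and Msrb1 (0.0483), while Selenoh did not (0.0756), nor Selenoo (0.393) or Txnrd3 (0.481).

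**Figure D4:**
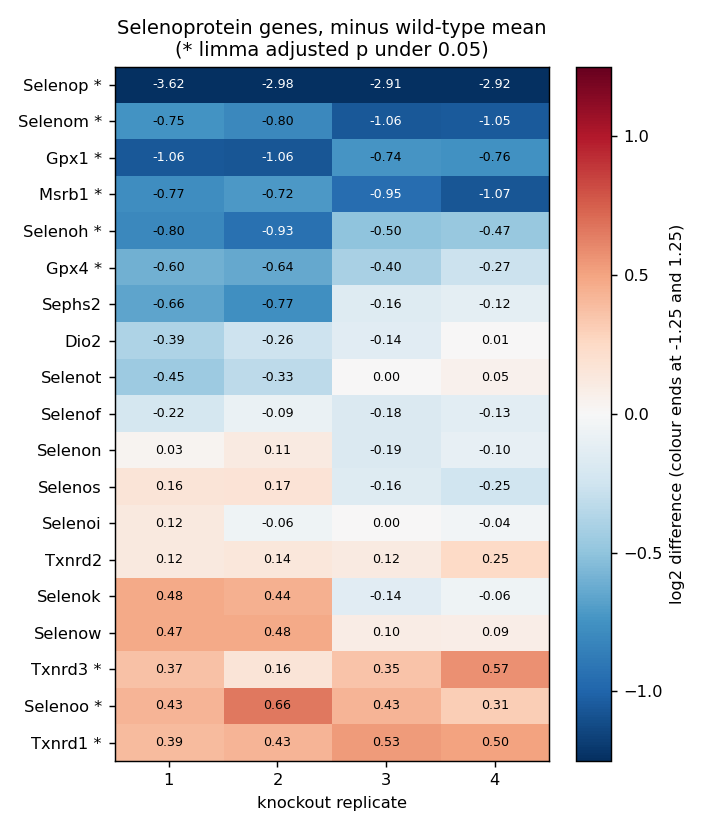
Log2 difference from the wild-type mean for 19 selenoprotein genes (rows, ordered by mean difference) in each knockout replicate (columns), with the value in each cell; asterisks mark limma adjusted p under 0.05. Selenop is the lowest, from -3.62 to -2.91, and Txnrd1 at the bottom is between 0.39 and 0.53.

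The genes that make selenocysteine, insert it or take up selenium had 2 of 13 genes higher, 2 lower and a median of 0.03, where 21.5% of all genes were higher and 21.6% lower. Lrp8, a receptor through which cells take up Selenop, had 6.11, 5.96 and 5.82 in wild type and 7.61, 7.56, 8.30 and 8.28 in knockout, a difference of 1.97 (SE 0.22, adjusted p = 0.000544). It rose in the same arrays in which its ligand gene Selenop fell, with replicates 3 and 4 the highest. Scly, which frees selenium from selenocysteine, fell by 0.54 (SE 0.08), Pstk, the kinase that prepares the selenocysteine tRNA, fell by 0.42 (SE 0.08), and the seryl-tRNA synthetase gene Sars rose by 0.46 (SE 0.06). Ncl, the brightest of the list, differed by 0.32 (SE 0.13, adjusted p = 0.0805), passed without knockout replicate 1 (0.39, adjusted p = 0.0404) and changed sign with the mean of its probe sets (-0.062). Lrp8 passed with the pairs as random blocks (adjusted p = 0.00749), and Sars (0.0891), Scly (0.174) and Pstk (0.222) did not. Pstk also did not pass with the mean of its probe sets (0.0522). Selenbp1, named after its value was seen, did not pass by limma (-1.32, SE 0.73, adjusted p = 0.1825) because the pairs differed. It stood at -2.58 and -2.61 from the wild-type mean in knockout replicates 1 and 2, and at -0.036 and -0.040 in replicates 3 and 4.

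In the thioredoxin and peroxiredoxin system, which works beside glutathione and is served by Txnrd1, 2 of 14 genes rose and 3 fell, with a median of 0.03. Txn1, thioredoxin itself and the brightest of the list, differed by 0.08 (SE 0.06, adjusted p = 0.334). The mitochondrial superoxide dismutase gene Sod2 rose by 0.71 (SE 0.06) and catalase, Cat, by 0.30 (SE 0.10). Msra, another methionine sulfoxide reductase, fell by 0.93 (SE 0.09), Prdx4 fell by 0.24 (SE 0.08) and Prdx2, named after its value was seen, fell by 0.19 (SE 0.05). Only Sod2 of these passed with the pairs as random blocks (adjusted p = 0.0279), and its call was lost with the mean of its probe sets (0.23, adjusted p = 0.133). The calls of Cat and Prdx4 were lost without any 1 of the wild-type arrays and without knockout replicate 1 or 2, with adjusted p from 0.0806 to 0.146. Prdx4 also did not pass with quantile normalization (adjusted p = 0.0551), median centring (0.0582), the mean of its probe sets (0.247) or without knockout replicates 1 and 2 (0.0507), and Cat did not without that pair (0.0591).

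The list of NRF2, its regulators and other NRF2 target genes was evenly split, with 7 of 25 genes higher, 7 lower and a median of 0.06. Maff, a small MAF partner of NRF2, had 4.95, 4.46 and 5.12 in wild type and 7.34, 7.27, 6.23 and 6.13 in knockout, a difference of 1.90 (SE 0.35, adjusted p = 0.00503). Blvrb, a biliverdin reductase, rose by 1.43 (SE 0.12), the malic enzyme gene Me1 by 1.34 (SE 0.08) and the glutathione conjugate exporter gene Abcc1 by 1.16 (SE 0.08). The ferritin heavy chain gene Fth1, the brightest of the list, differed by 0.04 (SE 0.10, adjusted p = 0.761). Some regulators and a target are named after their values were seen. Nfe2l2, the gene of NRF2, fell by 0.63 (SE 0.06, adjusted p = 0.000396), and its inhibitor gene Keap1 fell by 0.40 (SE 0.09, adjusted p = 0.0121). The repressor gene Bach1 fell by 0.49 (SE 0.05, adjusted p = 0.000601), and Hmox1, a much used NRF2 target, differed by 0.07 (SE 0.11, adjusted p = 0.639). Nfe2l2, Blvrb, Me1 and Abcc1 passed with the pairs as random blocks, while Maff (adjusted p = 0.0710), Keap1 (0.157) and Bach1 (0.0713) did not.

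NADPH, which Gsr and Txnrd1 consume, is supplied by a list of which 17 genes were measured, with 3 higher, 4 lower and a median of -0.05. Besides Me1, the proton-driven transhydrogenase gene Nnt fell by 0.78 (SE 0.14), the pentose phosphate enzyme gene Taldo1 by 0.70 (SE 0.07) and the isocitrate dehydrogenase gene Idh1 by 0.45 (SE 0.14). Tkt, the brightest, differed by 0.06 (SE 0.06, adjusted p = 0.409). Me1 (adjusted p = 0.0117) and Taldo1 (0.0497) passed with the pairs as random blocks, and Nnt (0.150) and Idh1 (0.209) did not. Idh1 also did not pass with quantile normalization (adjusted p = 0.0557), after centring on the median (0.0519) or with the mean of its probe sets (0.0598), nor without any 1 wild-type array or knockout replicate 1 or 2 (0.0805 to 0.122).

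ATF4 and its amino acid response targets moved in 1 direction. Of 16 genes besides Slc7a11, 11 rose and 0 fell by limma at adjusted p under 0.05, where 21.5% of all genes rose and 21.6% fell. The median was 0.62, and the list shares Slc3a2, Slc7a5 and Chac1 with those above. Psph, the last enzyme of serine synthesis, had 9.002, 8.89 and 9.09 in wild type and 10.36, 10.43, 10.46 and 10.51 in knockout, a difference of 1.44 (SE 0.07, adjusted p = 2.7e-05). Every knockout array was more than 1 log2 unit above every wild-type array. The transcription factor gene Atf3 rose by 1.41 (SE 0.44), Ddit4, an inhibitor of mTORC1 signalling, by 0.99 (SE 0.08) and Ddit3, a stress transcription factor gene, by 0.95 (SE 0.21). Phgdh, the brightest of the list, differed by 0.05 (SE 0.08, adjusted p = 0.638), and Atf4 itself, named after its value was seen, by 0.15 (SE 0.07, adjusted p = 0.0930). With the pairs as random blocks 6 of the 16 genes rose and 0 fell, where 4.48% of all genes rose and 4.56% fell. In that fit Atf3 (adjusted p = 0.108) and Ddit3 (0.0543) did not pass. The call of Atf3 was also lost without any 1 of the wild-type arrays and without knockout replicate 1 or 2 (adjusted p from 0.0682 to 0.104).

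Of 17 other genes of lipid peroxidation and ferroptosis, a form of cell death held back by Gpx4 and cystine import, 9 rose and 3 fell, with a median of 0.31. Ptgs2, the inducible cyclooxygenase, rose by 6.18 (SE 0.35) and Gch1, which starts tetrahydrobiopterin synthesis, by 1.29 (SE 0.09). Cisd2, an iron-sulfur protein gene, fell by 1.36 (SE 0.31) and the lipoxygenase gene Alox5 by 1.20 (SE 0.14). Sat1, a polyamine acetyltransferase gene and the brightest of the list, rose by 0.55 (SE 0.10). With the pairs as random blocks, 5 of the 17 genes were higher and 2 lower, and Sat1 did not pass (adjusted p = 0.0848). The call of Gch1 was lost with the mean of its probe sets (0.32, adjusted p = 0.172). Over all lists, 48 of 140 genes that are not members were higher (34.3%) and 25 lower (17.9%), against 21.5% and 21.6% of all genes, and with the pairs as random blocks 21 were higher and 7 lower.

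**Figure D5:**
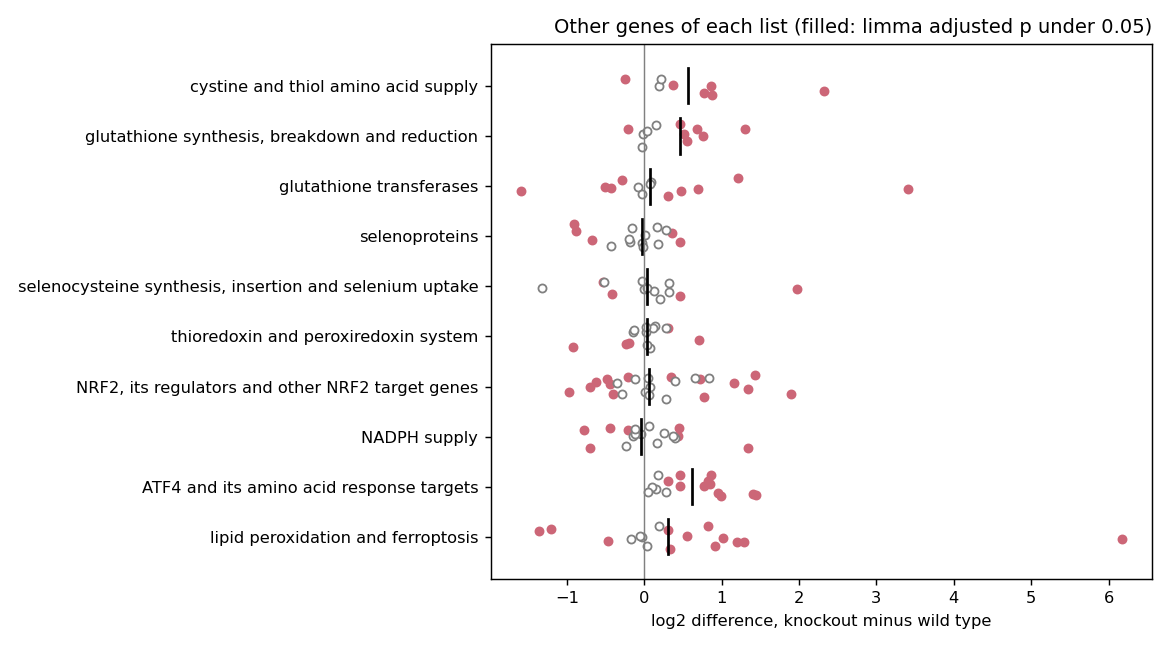
Log2 difference, knockout minus wild type (horizontal axis), of each measured gene that is not a member, by list (rows; a gene can be in more than 1); filled points had limma adjusted p under 0.05 and black bars are list medians. The medians are 0.57 for cystine supply, 0.46 for glutathione synthesis and 0.62 for ATF4 targets, and between -0.05 and 0.31 for the other lists.

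The patterns most like those of Slc7a11 and Selenop are given as a description, by Pearson's r of log2 signal over the 7 arrays, which share their group labels and pairs. For Slc7a11 the genes were Abhd11, Phlda1, Rffl, Prxl2a and Lonp1, with r from 0.9989 to 0.9993. Their differences ran from 0.49 for Lonp1 to 4.72 for Phlda1, and in each, knockout replicates 1 and 2 were above replicates 3 and 4. For Selenop they were Bphl, Lrp1, Rnls, Fcgr4 and Mppe1, with r from 0.9964 to 0.9979. These fell less than Selenop, from -0.48 for Mppe1 to -1.43 for Lrp1, and in each, knockout replicate 1 was the lowest array. Lonp1 and Mppe1 did not pass with the pairs as random blocks.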

How the data were processed

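RNA of 7 samples of RAW264.7 cells was measured on Affymetrix arrays, with TRIzol extraction and biotinylated cRNA per the labels' protocols. The authors deposited 1 normalized intensity per probe set and array, and RMA is named, with no version, per the submitters' processing notes. The deposited intensities were linear (1.53 to 13508), so log2 was taken. Of 19431 probe sets, 17335 had 1 gene symbol in the platform annotation, 532 had several and 1564 none. Genes (9999) were represented by their brightest probe set. Quantile normalization within RMA shares out array-wide differences, and no detection calls were used, so a dim signal may be cross-hybridisation. Groups and replicate numbers came from the sample titles. Precision is limited by how many arrays there are.

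The knockout and wild-type groups were compared using limma 3.58.1 under R 4.3.3 (2-group linear model over all 9999 genes, moderated two-sided tests, Benjamini-Hochberg adjustment, threshold 0.05, 5 residual and 2.2 prior degrees of freedom). The fit was tested on simulated data with independent arrays, which does not cover the pairing of the knockout arrays. The consensus correlation with pairs as random blocks was 0.794. Members and lists were chosen with earlier results of these data known, and the pair alternatives for the same reason. Genes named were the members, Gfi1, in each list the 4 most changed non-members with a call, where there were as many, and its brightest non-member, and the 5 genes most like Slc7a11 and Selenop. Others are said to be named after their values were seen. List symbols were matched by symbol, then by RefSeq synonym. Promoter windows came from RefSeq, GRCm38.p6. Alternatives were quantile normalization, median centring, leaving out dim genes (under the 40th percentile), an intensity trend with a robust prior, the mean of probe sets, a replicate block, pairs as random blocks, and leaving out each pair or array.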

Additional observations from a re-analysis of the deposited data

Results flagged for a closer look

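In knockout replicate 1, Selenop had a log2 signal of 2.95, while the other 3 knockout arrays had 3.59 to 3.66. The gap to the nearest array was 0.896 of the range over the 4 arrays. This was the 1 gene of 68 named genes in which a knockout array stood apart by this measure. Chance flags about 1 in 20 groups of 4 independent values. The knockout arrays form pairs, so this rate need not hold here. All 4 values lay near or under the limit of the lowest 5% of genes (3.49), and without replicate 1 the difference from wild type was -2.94 (adjusted p = 2.3e-05).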

How the results depend on the processing

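The members' counts of 3 higher and 3 lower stayed within 1.5 times under quantile normalization, median centring, the trend with a robust prior, the mean of probe sets and each left-out array. Without knockout replicates 1 and 2, 5 members were higher, and without replicates 3 and 4, 5 were lower, since Gclc and Gsr then passed. With the pairs as random blocks, 904 of all genes passed, and 21 other pathway genes were higher and 7 lower. On leaving out 1 array, between 2879 and 4465 of all genes passed (4305 with all arrays), and higher calls fell from 2149 to 1379 without wild-type replicate 2 and to 1404 without replicate 3. Without knockout replicates 3 and 4, 6814 of all genes passed and 38 other pathway genes were lower. Selenop was not tested where dim genes were left out. Differences changed sign for Gclc with the mean of probe sets (0.10), without knockout replicates 1 and 2 (0.15) and without replicate 1 or 2 (0.018 and 0.017). For Gsr this occurred with the replicate block (-0.0101), without knockout replicates 3 and 4 (-0.19) and without replicate 3 or 4 (-0.036 and -0.0101). Fth1 turned without knockout replicates 1 and 2 (-0.12), replicate 1 (-0.00617) or replicate 2 (-0.013), Phgdh without replicates 3 and 4 (-0.034), and, with the mean of probe sets, Slc25a39 (0.0071) and Ncl (-0.062). The cause was not tested. Of 58 named genes with a call, 23 lost it with the pairs as random blocks, and the 7 that lost it on leaving out 1 array were among these. Deviations of same-numbered arrays from their group means correlated at 0.124, -0.0902 and 0.106. The knockout deviations include the difference between the pairs, so these values cannot show whether the replicate numbers pair the arrays. With the replicate block 3805 of all genes, 3 members higher and 3 lower passed, as did 46 and 20 other pathway genes. Among named genes it ended the calls of Gsto1 (adjusted p = 0.0586) and Prdx4 (0.0727).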
